A study of Mus musculus with 12 samples.

Results

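Autophagy is the pathway by which a cell wraps part of its cytoplasm in a double membrane, the autophagosome, and delivers it to the lysosome for breakdown. The ULK1 kinase complex starts the process, the class III PI3-kinase complex marks the forming membrane with the lipid PI3P, ATG9 vesicles and lipid transfer proteins enlarge it, and a pair of ubiquitin-like conjugation systems attaches the LC3 and GABARAP proteins to it. Cargo receptors such as p62, encoded by Sqstm1, bind ubiquitinated or aggregated material on one side and LC3 or GABARAP on the other. Damaged endosomes and lysosomes are among the cargo of this pathway in many cell types.

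A list of 40 autophagy core genes and receptors, chosen by gene symbol, was examined in the RNA of mouse bone marrow-derived MSCs. All 40 symbols matched a single Ensembl gene among the 55487 genes of the count table, and all 40 had enough counts to be tested, with at least 43 counts in every sample. The study asked how A1, a variant of the endosome-disrupting molecule Accum made of cholic acid joined to the nuclear localization signal of hnRNPA1, changes MSCs so that they cross-present antigen. Primary wild-type MSCs of the strain C57BL/6, flushed by the study's methods from the femurs of young female mice and grown in serum-supplemented AMEM, were left untreated (control MSCs, labelled Negative, 4 samples), treated with 50 μM A1 for 6 h (A1-treated MSCs, 4 samples), or given 50 μM A1 together with 1 mg/ml of the model antigen ovalbumin (OVA) for 6 h (A1 + OVA-treated MSCs, 4 samples). None of the 12 samples was given OVA alone, so that an effect of OVA without A1 could not be assessed. No source used here says whether the samples of a group came from separate animals or cultures. The p-values therefore measure the spread between these samples, which may be technical. Each sample had between 13702348 and 16881995 counts, and 11314 protein-coding genes passed the filter on low counts. Levels are given in CPM, read counts scaled to a common library size after TMM normalization. A gene was called higher or lower where the quasi-likelihood test of edgeR, fitted over all 12 samples and adjusted over all 11314 genes by the Benjamini-Hochberg method, gave an adjusted p under 0.05 (edgeR adjusted p).

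Among the 10 MSC markers checked, Itgb1 averaged 1451 CPM, Pdgfrb 389 CPM and Cd44 175 CPM in control MSCs. Thy1 and Nt5e, which encode the MSC markers CD90 and CD73, were near 0 there, at 0.267 and 0.539 CPM. The summed level of the 10 genes was 2817 to 3006 CPM in control, 3649 to 3884 CPM in A1-treated and 3442 to 3731 CPM in A1 + OVA-treated MSCs. Of 12 haematopoietic and macrophage markers, C1qa, C1qb and Tyrobp had 0 counts in all samples, while Ptprc (CD45) had at most 4 counts and Adgre1 at most 2. The summed level of these 12 genes was 10.8 to 12.1 CPM in control, 15.3 to 17.7 CPM in A1-treated and 13.0 to 15.4 CPM in A1 + OVA-treated MSCs, most of it from Cd14. The part of either difference in the results was not tested. The 6 endothelial markers summed to at most 0.916 CPM and the 6 B and T cell markers to at most 0.305 CPM in any sample. The 4 osteoblast markers reached 2.90 CPM and the 4 adipocyte markers 78.9 CPM, almost all of it from Fabp4.

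The promoters of 4 members are shown for these reasons. Vmp1 had the largest rise, Calcoco1 the largest fall, and Map1lc3b fell most of the LC3 genes. Atg3 alone held a pair of CACGTG matches among the 32 members with a RefSeq promoter. The promoters shown come from RefSeq (build GRCm38.p6). They run 5′ to 3′ on the gene's strand from 250 bases before the start to 50 bases after it. Capitals mark matches on either strand to CACGTG, the core of the CLEAR element bound by TFEB and TFE3, or to TGACNNNGC, the core of the antioxidant response element bound by NRF2.
Vmp1 (chr11:86683787-86684086, minus strand): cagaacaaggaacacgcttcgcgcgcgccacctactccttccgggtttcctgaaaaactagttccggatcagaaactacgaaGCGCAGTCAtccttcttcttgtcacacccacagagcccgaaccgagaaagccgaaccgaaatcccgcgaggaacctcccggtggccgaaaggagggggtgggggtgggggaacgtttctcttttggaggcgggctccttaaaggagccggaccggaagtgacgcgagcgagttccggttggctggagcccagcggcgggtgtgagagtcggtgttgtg
Calcoco1 (chr15:102722129-102722428, minus strand): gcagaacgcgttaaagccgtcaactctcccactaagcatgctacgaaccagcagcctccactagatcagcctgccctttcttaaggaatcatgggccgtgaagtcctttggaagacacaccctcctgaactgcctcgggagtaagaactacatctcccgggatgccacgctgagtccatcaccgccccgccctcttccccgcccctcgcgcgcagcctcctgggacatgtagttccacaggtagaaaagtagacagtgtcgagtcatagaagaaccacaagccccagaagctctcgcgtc
Map1lc3b (chr8:121590188-121590487, plus strand): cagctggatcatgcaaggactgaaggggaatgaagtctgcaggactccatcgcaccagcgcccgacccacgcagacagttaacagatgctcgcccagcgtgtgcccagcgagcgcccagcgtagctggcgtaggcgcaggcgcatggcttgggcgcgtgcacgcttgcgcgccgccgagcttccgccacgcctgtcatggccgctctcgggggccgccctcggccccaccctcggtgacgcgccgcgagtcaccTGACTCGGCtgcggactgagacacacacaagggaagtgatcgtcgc
Atg3 (chr16:45158579-45158878, plus strand): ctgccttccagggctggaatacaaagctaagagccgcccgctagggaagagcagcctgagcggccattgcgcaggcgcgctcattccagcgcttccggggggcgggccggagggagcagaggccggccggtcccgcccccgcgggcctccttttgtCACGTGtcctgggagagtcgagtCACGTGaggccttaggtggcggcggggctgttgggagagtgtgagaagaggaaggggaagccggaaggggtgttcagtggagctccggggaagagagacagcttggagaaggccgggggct
RefSeq held promoters for 32 of the 40 members, with 38 starts in all. CACGTG was found for 4 of the 32 genes (Atg3, Atg5, Atg7 and Atg14) and in 10.5% of their 38 promoters, next to 8.03% of the 20139 promoters of protein-coding genes. TGACNNNGC was found for 5 genes (Atg13, Map1lc3b, Tax1bp1, Ulk2 and Vmp1, the last at all 3 of its starts), in 18.4% of the members' promoters and 13.1% of all promoters. Counted by gene, all genes with a promoter held CACGTG in 9.17% and TGACNNNGC in 15.02%, next to 4 and 5 of the 32 members. Neither GTAAACA, the motif of FOXO factors, nor TGATGNAA, the core of the ATF4 element, was found in the members' windows, while 2.96% and 3.40% of all promoters held them. Of the genes with TGACNNNGC, Vmp1 was higher, Map1lc3b, Tax1bp1 and Ulk2 were lower and Atg13 was not called in A1-treated MSCs, and of those with CACGTG, Atg3 and Atg14 were lower and Atg5 and Atg7 were not called.

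In A1-treated MSCs, 7 of the 40 members rose and 17 fell relative to control MSCs, and 16 were not called. That is 60% of the members called, where 62.7% of all tested genes were called, with 17.5% of members higher (background 31.7%) and 42.5% lower (background 31.1%). The changes were small. The members' log2 fold changes ran from -0.69 to 0.50 with a median of -0.07, and 29 of 40 were under 0.25 in absolute size. Over all tested genes the median was 0.00. The median absolute log2 fold change was 0.19 for the members and 0.23 over all tested genes. Calcoco1 alone was called with a log2 fold change past 0.5 in either direction, which is 1 of 40 members, while 21% of all tested genes did so (9.41% higher, 11.6% lower). Vmp1 lay just under that limit, at 0.50 after rounding. The ranges of the A1-treated and control samples did not overlap for 6 members above control (background 28%) and 15 below it (background 26.4%). The members together held 0.296% to 0.308% of all counts in control samples, 0.273% to 0.276% in A1-treated samples and 0.276% to 0.282% in A1 + OVA-treated samples. Neither treated group overlapped the control group. These are shares of raw counts, without the TMM scaling behind the CPM values and fold changes. Their gap is therefore not on the scale of those values. In bulk RNA of this kind, less RNA of a gene per cell cannot be told apart from fewer cells that express it.

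In A1 + OVA-treated MSCs, 6 members were higher and 14 lower than in the same control samples, 50.0% of the members where 57.6% of all tested genes were called (higher 29.7%, lower 27.9%). The median log2 fold change was -0.09, and again Calcoco1 alone passed 0.5 (background 17.7%, of which 8.92% higher and 8.79% lower). The sample ranges did not overlap for 3 members above control (background 25.4%) and 12 below it (background 24%). Both treatments were compared with the same 4 control samples, so that their values are given side by side and not as independent results. The plot of log2 fold changes by role shows both.

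**Figure D1:**
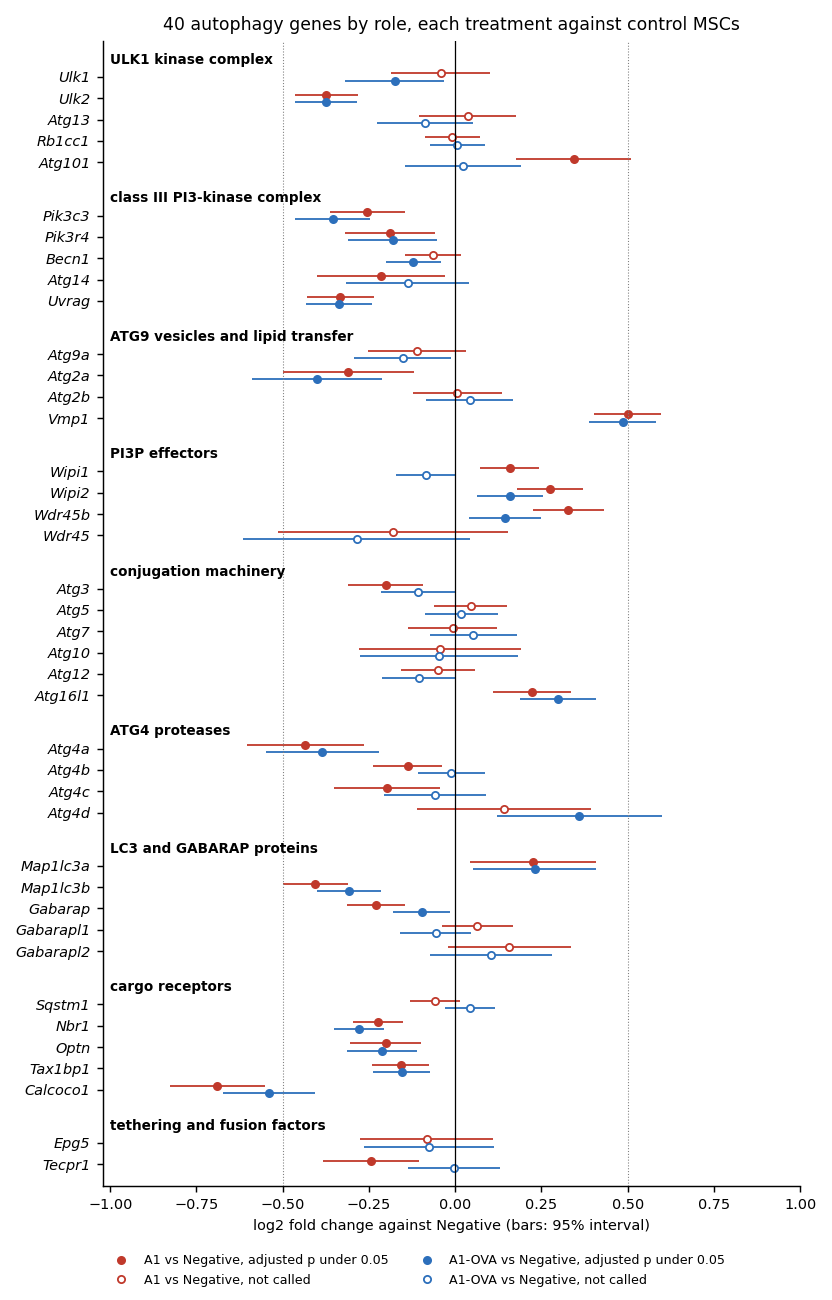
Log2 fold change against control MSCs (x axis) of each of the 40 members (y axis, grouped by role) in A1-treated (red) and A1 + OVA-treated MSCs (blue), with 95% intervals from edgeR's fit, filled points at an adjusted p under 0.05 and dotted lines at 0.5 to each side of 0. Most members lie within 0.25 of no change, filled points of 4 of 5 cargo receptors lie to the left in both treatments, and Vmp1 and Calcoco1 are the members farthest to each side.

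Of the 5 cargo receptors, 4 fell in each treatment and none rose, where 31.1% of all tested genes were called lower with A1 and 27.9% with A1 + OVA. The largest decrease of any member was that of Calcoco1. This receptor, which binds LC3 and GABARAP and has been linked to ER-phagy, stood at 50.6, 45.6, 48.3 and 48.4 CPM in the control samples, at 28.2, 33.2, 27.9 and 30.2 CPM in the A1-treated samples and at 29.1, 32.4, 34.3 and 36.4 CPM in the A1 + OVA-treated samples. All 8 treated samples lay below all 4 controls. The means were 48.2 ± 2.02 CPM in control, 29.9 ± 2.43 CPM in A1-treated and 33.1 ± 3.09 CPM in A1 + OVA-treated MSCs (SD, n = 4 each). Its log2 fold change was -0.69 with A1 (standard error 0.07, edgeR adjusted p = 9.43e-09) and -0.54 with A1 + OVA (standard error 0.06, edgeR adjusted p = 2.87e-07). Calcoco1 (ENSMUSG00000023055) lies on the minus strand of chromosome 15 of GRCm38 from 102706777 to 102722178.

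Sqstm1, whose product p62 gathers ubiquitinated proteins and is itself degraded by autophagy, was the most abundant member in CPM and did not follow Calcoco1. It stood at 422, 391, 416 and 402 CPM in control samples, at 393, 389.6, 397 and 388 CPM with A1 and at 409.6, 432, 423 and 416 CPM with A1 + OVA. The A1-treated samples, at 388 to 397 CPM, straddled the lower limit of the control range of 391 to 422 CPM. The A1 + OVA-treated samples, at 409.6 to 432 CPM, straddled its upper limit. Neither difference from control was called, at log2 fold changes of -0.06 (95% interval -0.13 to 0.02, edgeR adjusted p = 0.157) and 0.04 (95% interval -0.03 to 0.12, edgeR adjusted p = 0.302). Under upper-quartile normalization the A1 value was -0.09 and was called (edgeR adjusted p = 0.0371).

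The other 3 receptors fell modestly in both treatments. Nbr1, a partner of p62 in binding ubiquitinated cargo, stood at 135, 135, 133 and 138 CPM in control samples, at 116, 115, 120.1 and 112 CPM with A1 and at 111, 112, 109.8 and 113 CPM with A1 + OVA. Optn, which encodes optineurin, stood at 74.1, 77.4, 73.5 and 70.9 CPM in control samples, at 65.9, 65.8, 62.6 and 63.0 CPM with A1 and at 61.2, 59.5, 64.7 and 69.9 CPM with A1 + OVA. Tax1bp1, another ubiquitin-binding receptor, stood at 292, 324, 298 and 296 CPM in control samples, at 264, 272, 275 and 274 CPM with A1 and at 281, 275, 258 and 273 CPM with A1 + OVA. In all 3 genes every treated sample was below every control sample, although control sample 2 of Tax1bp1 stood above the other 3. With A1 the log2 fold changes were -0.22 for Nbr1, -0.20 for Optn and -0.16 for Tax1bp1, with standard errors of 0.03 to 0.05 and edgeR adjusted p-values of 1.05e-05, 0.00134 and 0.00152. With A1 + OVA they were -0.28, -0.21 and -0.16.

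Among the LC3 and GABARAP proteins, which are joined to the lipid phosphatidylethanolamine on the autophagosome and hold the receptors there, 2 of 5 genes fell (background 31.1%) and 1 rose (background 31.7%) with A1. Map1lc3b, the gene of the LC3 form most often used as a marker of autophagosomes, stood at 90.4, 80.6, 84.7 and 87.8 CPM in control samples, at 67.0, 64.8, 65.9 and 61.7 CPM with A1 and at 70.7, 66.9, 67.9 and 71.9 CPM with A1 + OVA. The groups did not overlap, and the log2 fold changes were -0.41 (standard error 0.05, edgeR adjusted p = 9.86e-08) and -0.31 (standard error 0.04, edgeR adjusted p = 4.57e-06). In the transcripts of Map1lc3b, 2.87% of the distinct stretches of 100 bases also occur in other annotated genes, of which the pseudogene Gm6055 had the most counts, 12 to 25 per sample against at least 849 for Map1lc3b.

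Gabarap stood at 309, 273, 277 and 281 CPM in control samples, at 241, 237, 251 and 244 CPM with A1 and at 269, 264, 259 and 273 CPM with A1 + OVA. The A1-treated samples were below all other samples, while A1 + OVA-treated samples overlapped the controls. Its log2 fold change was -0.23 with A1 (edgeR adjusted p = 4.24e-05) and -0.10 with A1 + OVA (edgeR adjusted p = 0.0423). The second call was lost, with edgeR adjusted p-values of 0.0543 to 0.186, without control sample 1 or 4, without A1 + OVA sample 1, 2 or 3, and in the fit of only the groups compared.

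Map1lc3a moved the other way. It stood at 18.6, 13.5, 13.7 and 15.9 CPM in control samples, at 17.2, 18.6, 18.5 and 17.8 CPM with A1 and at 17.3, 17.4, 18.9 and 18.7 CPM with A1 + OVA. Control sample 1 reached the level of the treated samples, and the log2 fold change was 0.23 in both treatments (standard error 0.09 each, edgeR adjusted p = 0.0297 with A1 and 0.0260 with A1 + OVA). The A1 call was lost under upper-quartile normalization and without control sample 2 or 3 or A1 sample 2, 3 or 4, and the A1 + OVA call without control sample 2 or 3 or A1 + OVA sample 3 or 4, with edgeR adjusted p-values of 0.0526 to 0.113 over both.

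The remaining GABARAP genes were not called against control. Gabarapl1 stood at 101, 91.3, 90.6 and 86.5 CPM in control samples, at 103, 92.3, 98.0 and 92.8 CPM with A1 and at 91.8, 90.1, 82.8 and 90.2 CPM with A1 + OVA. Gabarapl2 stood at 15.6, 12.3, 13.2 and 13.9 CPM in control samples, at 14.0, 14.4, 16.6 and 16.3 CPM with A1 and at 14.6, 15.1, 13.4 and 15.8 CPM with A1 + OVA. The groups overlapped in both genes against control, with 95% intervals of the log2 fold change with A1 of -0.04 to 0.17 for Gabarapl1 and -0.02 to 0.34 for Gabarapl2. Without control sample 1, Gabarapl2 was called higher with A1 (0.22, edgeR adjusted p = 0.0298). Divided by exonic length, the order in control MSCs was Gabarap at 155 ± 8.74 CPM per kb, Gabarapl1 at 45.8 ± 3.02, Map1lc3a at 13.1 ± 2.04, Map1lc3b at 11.4 ± 0.563 and Gabarapl2 at 5.91 ± 0.601 CPM per kb (SD, n = 4 each). Map1lc3a and Map1lc3b were closer to each other than the SD of Map1lc3a, and in A1-treated MSCs they stood at 15.3 ± 0.554 and 8.62 ± 0.305 CPM per kb. Exonic length here is the union of all annotated exons, which lowers the value of genes with long alternative ends.

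**Figure D2:**
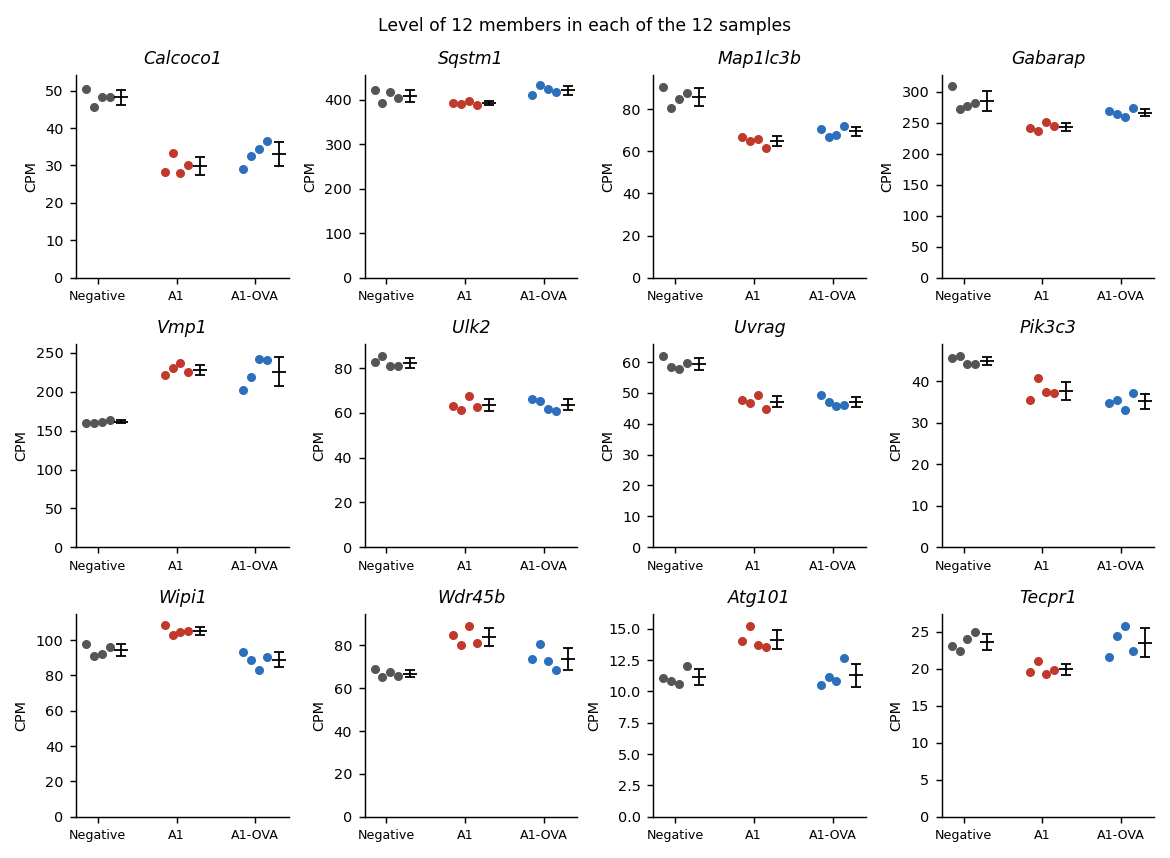
CPM (y axis, from 0) of 12 members in each of the 12 samples, by group (x axis; control MSCs labelled Negative), with the mean and SD of 4 samples at the right of each group. Calcoco1, Map1lc3b, Ulk2, Uvrag and Pik3c3 are lower and Vmp1 is higher in every treated sample, while for Wipi1, Atg101 and Tecpr1 only the A1 samples stand apart from control.

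Values per sample are also given for Pik3c3, Uvrag, Ulk2, Vmp1, Wipi2 and Atg4a, which were picked after their values were seen. The class III PI3-kinase complex makes PI3P on the forming autophagosome. None of the 5 members grouped here as this kinase and its partners rose, and 4 of 5 fell in each treatment. Of all tested genes, 31.1% were called lower with A1 and 27.9% with A1 + OVA. Pik3c3, the catalytic subunit also known as VPS34, stood at 45.5, 45.9, 44.1 and 44.0 CPM in control samples, at 35.4, 40.6, 37.4 and 37.1 CPM with A1 and at 34.8, 35.5, 32.9 and 37.1 CPM with A1 + OVA. Uvrag, a Beclin 1 partner with a role in endosome traffic, stood at 61.8, 58.3, 57.6 and 59.8 CPM in control samples, at 47.7, 46.9, 49.3 and 44.8 CPM with A1 and at 49.4, 47.0, 45.8 and 45.9 CPM with A1 + OVA. All treated samples of both genes were below all controls. The log2 fold changes were -0.25 and -0.35 for Pik3c3 and -0.33 and -0.34 for Uvrag, in the order A1 and A1 + OVA, with standard errors of 0.05 each and edgeR adjusted p-values between 1.87e-06 and 0.000251. Pik3r4, the regulatory subunit VPS15, fell to -0.19 and -0.18. Atg14, which directs the complex to autophagosomes, was called with A1 only (-0.21, edgeR adjusted p = 0.0405), and Becn1, which encodes Beclin 1, with A1 + OVA only (-0.12, edgeR adjusted p = 0.0110). The direct comparison of both treatments did not call either gene, and under upper-quartile normalization Becn1 was called with A1 too (-0.09, edgeR adjusted p = 0.0441). The Atg14 call was lost in DESeq2 and without control sample 1, 2 or 3 or A1 sample 2, 3 or 4 of edgeR's fit, with adjusted p-values of 0.0591 to 0.146 over both tools. The Pik3r4 calls were lost without A1 sample 3 (edgeR adjusted p = 0.0530) and without A1 + OVA sample 1 (edgeR adjusted p = 0.0564).

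In the ULK1 kinase complex, which integrates nutrient signals and starts autophagosome formation, Ulk2 fell while Rb1cc1 (FIP200) and Atg13 were not called. Ulk2, a kinase with overlapping functions to ULK1, stood at 82.6, 85.2, 80.9 and 80.8 CPM in control samples, at 63.0, 61.3, 67.4 and 62.6 CPM with A1 and at 66.0, 65.5, 61.9 and 61.1 CPM with A1 + OVA. The log2 fold change was -0.37 in both treatments (standard error 0.04 each, edgeR adjusted p = 1.85e-07 and 1.84e-07). Ulk1 was not called with A1 (-0.04, 95% interval -0.19 to 0.10), while with A1 + OVA it was called lower (-0.18, edgeR adjusted p = 0.0350), a call lost without control sample 1 or 4 or A1 + OVA sample 1, 2 or 4. Atg101, which stabilizes ATG13, stood at 11.1, 10.8, 10.6 and 12.04 CPM in control samples, at 14.0, 15.2, 13.7 and 13.5 CPM with A1 and at 10.51, 11.1, 10.8 and 12.6 CPM with A1 + OVA. It was the member of this complex that rose, by a log2 fold change of 0.34 with A1 (edgeR adjusted p = 0.000807), against 0.02 with A1 + OVA (edgeR adjusted p = 0.824).

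Among the ATG9 vesicle and lipid transfer genes, Vmp1 had the largest increase of the list. VMP1 is an ER membrane protein that moves lipids between membrane leaflets at contacts with the autophagosome. Its gene stood at 159.7, 160.3, 162 and 164 CPM in control samples, at 222, 230.0, 236 and 225 CPM with A1 and at 203, 219, 242 and 241 CPM with A1 + OVA. Every treated sample was above every control, with log2 fold changes of 0.50 and 0.49 (standard error 0.05 each, edgeR adjusted p = 6.46e-09 and 1.07e-08). Vmp1 (ENSMUSG00000018171) lies on the minus strand of chromosome 11 of GRCm38 from 86583865 to 86683836. The microRNA gene Mir21a, which lies on the same strand within it, had 0 counts in every sample, and gene counts do not separate reads of Vmp1 mRNA from reads of a longer microRNA precursor there. Atg2a, which encodes a lipid transfer protein, fell by 0.31 and 0.40 on the log2 scale (edgeR adjusted p = 0.00561 and 0.000677), while its homolog Atg2b lay at 0.01 and 0.04 and Atg9a, the lipid scramblase of the seed vesicles, at -0.11 and -0.15, without a call. The Atg9a value with A1 + OVA (edgeR adjusted p = 0.0575) was near the threshold and was called lower in 8 of 19 alternatives, the replicate block among them (0.00547 to 0.0491). Atg9a shares 27.8% of its distinct stretches of 100 bases with the overlapping gene Gm29253, which had 0 counts in every sample. Part of its reads could have been left uncounted.

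The PI3P effectors, WD-repeat proteins that bind the lipid made by the PI3-kinase, had 3 of 4 genes higher with A1 (background 31.7%). Wipi2, which recruits ATG16L1 to the membrane, stood at 68.7, 70.4, 73.3 and 68.7 CPM in control samples, at 92.2, 80.6, 86.1 and 80.9 CPM with A1 and at 77.3, 77.5, 81.5 and 77.3 CPM with A1 + OVA. All treated samples were above the controls, with log2 fold changes of 0.27 and 0.16. Wdr45b (WIPI3) stood at 68.8, 65.1, 67.6 and 65.5 CPM in control samples, at 84.9, 79.9, 89.1 and 81.2 CPM with A1 and at 73.6, 80.7, 72.6 and 68.3 CPM with A1 + OVA, where 1 sample fell back to the control range. Its log2 fold changes were 0.33 and 0.14 (edgeR adjusted p = 7.38e-06 and 0.0172), and the second call was lost without A1 + OVA sample 2 (0.0961). Wipi1 stood at 97.8, 91.1, 92.3 and 96.2 CPM in control samples, at 108, 103, 105 and 105 CPM with A1 and at 93.3, 89.0, 83.2 and 90.3 CPM with A1 + OVA. It was higher with A1 (0.16, edgeR adjusted p = 0.00222) and not called with A1 + OVA (-0.08, edgeR adjusted p = 0.0848), although upper-quartile normalization and leaving out A1 + OVA sample 1 each called it lower there (0.0303 and 0.0440). Wdr45 (WIPI4), the least abundant member in CPM, was not called at -0.18 and -0.29, with intervals of up to 0.15 and 0.04 on the upper side. It was called lower with A1 + OVA without control sample 2 (-0.39, edgeR adjusted p = 0.0387). Wdr45 shares 12.6% of its distinct stretches of 100 bases with the overlapping gene Gm45208, which had 0 counts in every sample. Part of its reads could have been left uncounted.

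The conjugation machinery attaches LC3 and GABARAP proteins to the membrane. With A1, 1 of its 6 genes was higher (background 31.7%) and 1 lower (background 31.1%). With A1 + OVA, 1 was higher (background 29.7%) and 0 were lower (background 27.9%). Of its 6 genes, Atg5, Atg7, Atg10 and Atg12 were called in neither treatment, and with A1 their log2 fold changes lay between -0.05 and 0.04. For Atg12 with A1 + OVA (-0.11), 3 alternatives gave a call (upper-quartile normalization and without A1 + OVA sample 1 or 2). Atg3, the enzyme of the last step of LC3 attachment, was called lower with A1 (-0.20, edgeR adjusted p = 0.00213) and lay at -0.11 with A1 + OVA (edgeR adjusted p = 0.0829), where 4 alternatives called it lower (upper-quartile normalization, no filter, and without control sample 3 or A1 + OVA sample 1; 0.0157 to 0.0480). Atg16l1, the scaffold that places the conjugate on the membrane, was higher in both treatments, by 0.22 and 0.30 (edgeR adjusted p = 0.00118 and 5.79e-05). Of the ATG4 proteases, which trim LC3 and GABARAP before conjugation and release them afterwards, 3 of 4 were lower with A1 (background 31.1%). Atg4a stood at 17.8, 17.1, 16.3 and 16.4 CPM in control samples, at 14.6, 11.4, 12.7 and 11.3 CPM with A1 and at 13.8, 13.2, 12.2 and 12.6 CPM with A1 + OVA. Its log2 fold changes were -0.44 and -0.39 (standard error 0.08 each, edgeR adjusted p = 8.99e-05 and 0.000276). Atg4a shares 34.7% of its stretches of 100 bases with Atg4a-ps, which had at most 4 counts in a sample, so that part of its reads could have been split or left uncounted. Atg4b and Atg4c were lower with A1 (-0.14 and -0.20, edgeR adjusted p = 0.0163 and 0.0244) and were not called with A1 + OVA. The Atg4c call was lost in DESeq2 and without control sample 4 or A1 sample 4 (0.0612 to 0.0832). Atg4d, at 7.49 ± 1.65 CPM in control MSCs (SD, n = 4), was called higher with A1 + OVA (0.36, edgeR adjusted p = 0.0109), a call lost without control sample 2 (0.0533). With A1 it lay at 0.14 without a call, and without control sample 1 at 0.30 with one (edgeR adjusted p = 0.0181), and the direct comparison of both treatments did not call it.

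Adding OVA to A1, compared directly with A1 alone, changed 5 of the 40 members, 12.5% where 12.9% of all tested genes were called (higher 6.05%, lower 6.81%). Lower with OVA were Atg101 at a log2 fold change of -0.32 (95% interval -0.49 to -0.15, edgeR adjusted p = 0.0112), Wipi1 at -0.24 (95% interval -0.33 to -0.16, edgeR adjusted p = 0.000541) and Wdr45b at -0.18 (95% interval -0.29 to -0.08, edgeR adjusted p = 0.0181). Higher with OVA were Tecpr1 at 0.24 (95% interval 0.10 to 0.38, edgeR adjusted p = 0.0217) and Gabarap at 0.13 (95% interval 0.05 to 0.22, edgeR adjusted p = 0.0345). Each of these 5 differences was opposite in sign to the gene's difference between A1 and control, and the A1 samples enter both. Tecpr1, a tethering factor that binds PI3P and the ATG5 conjugate at the lysosome, stood at 23.02, 22.4, 24.1 and 24.95 CPM in control samples, at 19.6, 20.995, 19.3 and 19.8 CPM with A1 and at 21.6, 24.4, 25.8 and 22.4 CPM with A1 + OVA. Only the A1-treated samples lay apart (-0.24 against control, edgeR adjusted p = 0.00333). Epg5, the other tethering factor of the list, was not called in any comparison.

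Of these 5 calls, 3 depended on single samples. That for Gabarap was lost without A1 sample 1, 2 or 4 or A1 + OVA sample 1, 2 or 4 (edgeR adjusted p = 0.0564 to 0.103), that for Tecpr1 without A1 sample 1, 3 or 4 or A1 + OVA sample 2 or 3 (0.0550 to 0.0842), and that for Wdr45b without A1 sample 3 or A1 + OVA sample 4 (0.0626 and 0.0787). Those for Wipi1 and Atg101 held in all 19 alternatives. No member was called past a log2 fold change of 0.5 (background 1.2%, of which 0.769% higher and 0.433% lower), and the sample ranges did not overlap for 4 members higher (background 8.56%) and 3 lower (background 9.58%) with OVA. All 40 of the 95% intervals for this comparison lay within a log2 fold change of 0.5 in either direction, the widest being that of Wdr45. Sqstm1 was at 0.10 (edgeR adjusted p = 0.0619), with all 4 A1 + OVA-treated samples above all 4 A1-treated ones, and was called in 5 of the 19 alternatives.

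**Figure D3:**
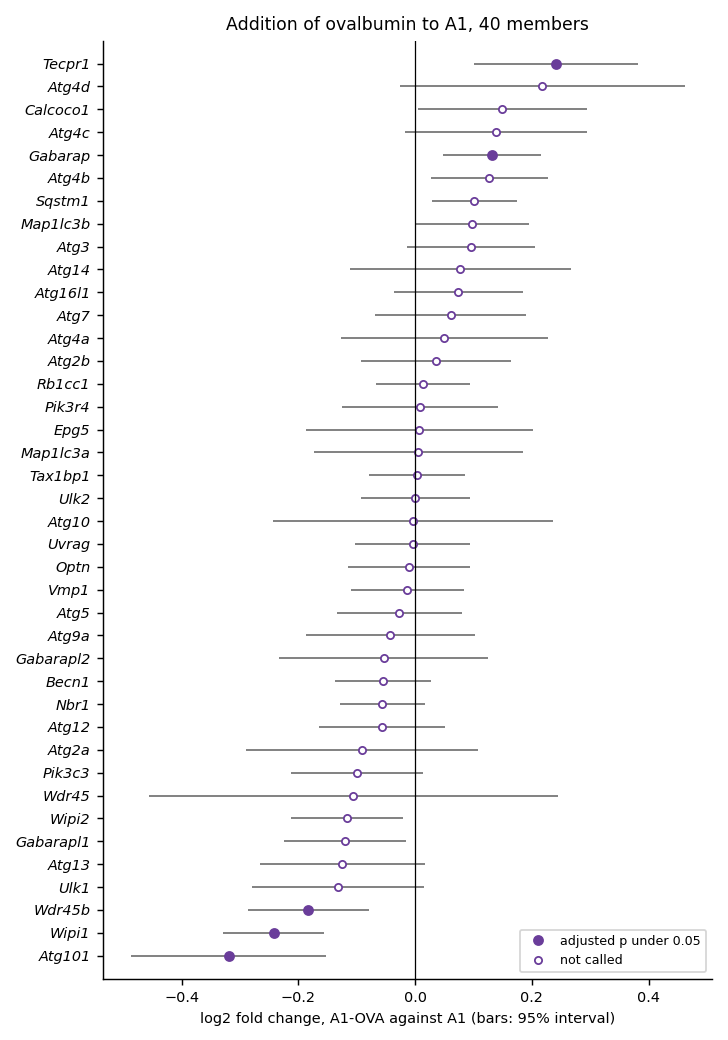
Log2 fold change of A1 + OVA-treated against A1-treated MSCs (x axis) for the 40 members (y axis, sorted), with 95% intervals from edgeR's fit and filled points at an adjusted p under 0.05. Atg101, Wipi1 and Wdr45b are called at the lower end and Tecpr1 and Gabarap among the 5 highest, and every interval stays within 0.5 of no change.

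Genes that act around the core pathway were taken from 7 further lists, and their counts are to be read against the 31.1% of all tested genes called lower and 31.7% called higher with A1. Of 33 tested genes of mTORC1, AMPK and nutrient sensing, 16 were lower and 3 higher in A1-treated MSCs, with a median log2 fold change of -0.15. Sesn3 and Sesn1, which encode sestrins that restrain mTORC1, had the largest decreases there, from 90.8 ± 2.54 to 35.3 ± 2.23 CPM and from 48.8 ± 2.55 to 23.2 ± 1.5 CPM (SD, n = 4 each). The log2 fold changes were -1.36 and -1.07. Among 14 tested partners of initiation and nucleation, 6 were lower and 1 higher, led by Trp53inp1, a p53-induced LC3-binding protein, at -1.54 and Zfyve1, which encodes the PI3P-binding protein DFCP1, at -0.69. Of 11 genes of PI3P turnover, 8 were lower and 0 higher, led by Fig4 and Mtmr3, both phosphoinositide phosphatases, at -0.58 and -0.56. The median log2 fold change was -0.09 for the initiation partners and -0.23 for PI3P turnover. Sesn3, Sesn1 and Trp53inp1 each had a larger fold change than any of the 40 members.

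Of 15 tested factors of mitophagy and pexophagy, the removal of mitochondria and peroxisomes, 8 were lower and 4 higher. Bnip3, a mitophagy receptor, rose from 39.1 ± 0.724 to 74.9 ± 5.23 CPM (SD, n = 4 each; log2 fold change 0.94), and Nipsnap1, a mitochondrial protein that can recruit receptors, had the largest decrease at -1.73, from 3.43 ± 0.495 to 1.02 ± 0.379 CPM. Of 14 tested ER-phagy, ferritin and other receptors, 5 were lower and 2 higher, led by Tnip1 at -0.64, which encodes a ubiquitin-binding protein, and by Stbd1 at 0.44, a receptor for glycogen. Of 23 tested genes of fusion with the lysosome, 10 were lower and 3 higher. The largest decreases there were those of Vps41, a subunit of the HOPS tethering complex, at -0.43 and of Rab2b, a small GTPase, at -0.41. The median log2 fold changes were -0.14, -0.10 and -0.09 for these 3 lists. Of 15 transcription factors known to act on autophagy genes, 5 were higher and 5 lower. Their median was 0.01. Of the genes called, the largest fold changes were those of Foxo1 at -0.49 and Nfe2l2, which encodes NRF2, at 0.40. Tfeb was not called (-0.15, 95% interval -0.38 to 0.07), while its relatives Tfe3 and Mitf, named here after their values were seen, were higher by 0.18 and 0.34 on the log2 scale. With A1 + OVA, the counts lower and higher were 13 and 2 for nutrient sensing, 5 and 1 for the initiation partners, 6 and 1 for PI3P turnover, 7 and 4 for mitophagy, 5 and 3 for the other receptors, 10 and 4 for fusion and 5 and 5 for the transcription factors, where 27.9% of all tested genes were lower and 29.7% higher.

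**Figure D4:**
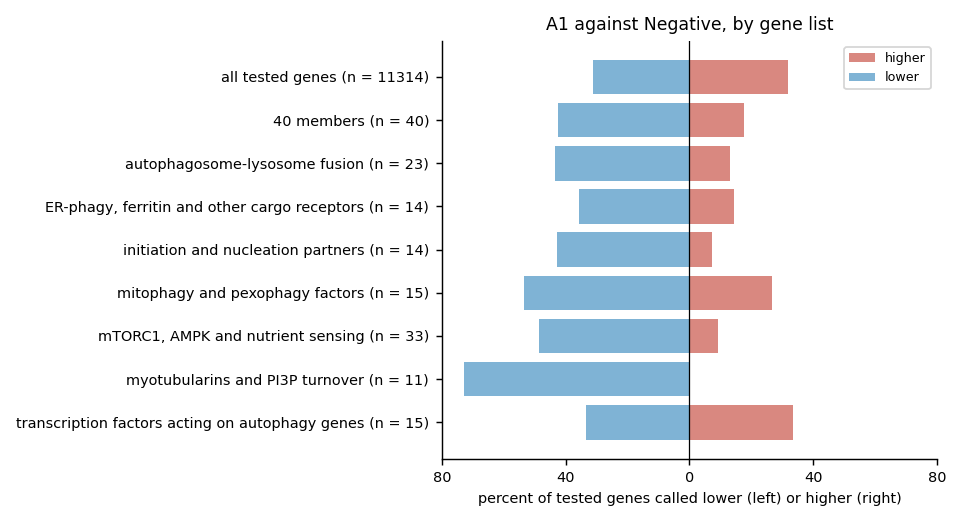
Percent of tested genes called lower (left of 0) or higher (right of 0) in A1-treated against control MSCs, for all 11314 tested genes, the 40 members and 7 lists of related genes (y axis, with the number tested). In 6 of the 7 lists and in the members the lower calls outnumber the higher ones, while the transcription factors have 5 of each and all tested genes have 31.7% higher and 31.1% lower.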

How the data were processed

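RNA of 12 samples of mouse bone marrow MSCs (4 control, 4 A1, 4 A1 + OVA) was sequenced. The authors deposited whole-number counts of reads per Ensembl gene, not normalized. The submitters' processing notes name bcl2fastq 2.20, STAR 2.7 and featureCounts 2.0. By the study's methods, reads were aligned to GRCm38 and counted with strand taken into account. Reads that match several genes may be lost or split by such counting. Of 55487 genes, 99.5% matched GENCODE M21 (GRCm38), which gave the symbols and lengths. The 21974 protein-coding genes were kept, and genes with low counts were removed with edgeR's filterByExpr.

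The counts were tested in R 4.3.3 with edgeR 4.0.16 (TMM scaling, quasi-likelihood F-test, 1 fit over all 12 samples, Benjamini-Hochberg adjustment over 11314 genes). Standard errors were derived from the F statistics, with 95% intervals from the t distribution. The code was tested on simulated data. Totals were 15644991 to 16881995 counts in control, 13702348 to 14347870 in A1 and 14359973 to 16674294 in A1 + OVA samples. No replicate pair agreed within sampling noise.

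The members, gene lists and rules were chosen with earlier results of these data known. Values per sample were given for the LC3, GABARAP and receptor genes, for other members called and at or past 0.5 in log2 fold change, up or down, and for those called between A1 + OVA and A1. From each related list the 2 called genes with the largest fold change with A1 were named. Pldn matched no gene and Atg9b, Rragb, Rragd and Calcoco2 were among the listed genes too low to test. Ddit3 had 2 identifiers, of which the lower was used. Alternatives were upper-quartile normalization, DESeq2 1.42.0, no filter, a minimum of 10 counts, a fit of only the groups compared, testing every gene in the table, a replicate block and leaving out each sample.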

Additional observations from a re-analysis of the deposited data

Results flagged for a closer look

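Of 120 sets of 4 samples (40 members in 3 groups), 3 held a sample far from the others by Dixon's criterion, where chance gives about 1 in 20. Wipi2 in A1 + OVA-treated sample 3 stood at 81.5 CPM, with the other 3 at 77.3 to 77.5 CPM. Atg16l1 in the same sample stood at 40.4 CPM, with the others at 36.2 to 36.4 CPM. Tax1bp1 in control sample 2 stood at 324 CPM, with the others at 292 to 298 CPM. The calls of these 3 genes against control held without those samples.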

How the results depend on the processing

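Against control, more members were called lower than higher in every alternative tried. With one sample left out, the members called with A1 numbered 6 to 9 higher and 15 to 17 lower, and with A1 + OVA 4 to 6 higher and 12 to 16 lower. Upper-quartile normalization gave 6 higher and 19 lower with A1, and 6 and 18 with A1 + OVA, while DESeq2 gave 7 and 15, and 6 and 14. Between A1 + OVA and A1, the members called higher numbered 0 to 3 and those lower 2 to 3, with 0 higher without A1 sample 1 or 4 or A1 + OVA sample 2.

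No sign of pairing by replicate number was seen. The deviations of same-numbered samples from their group means had a mean correlation of 0.02 over 12 pairs. A sample correlated best with its own number in 6 of 24 cases. These values cannot show whether the samples were paired in the experiment. With the replicate block, 7 members were higher and 17 lower with A1, 6 and 15 with A1 + OVA, and 2 and 3 between the treatments.

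Of the 120 member values, 24 changed sign in some alternative, none of them called and none above 0.06 in absolute size after the change. With upper-quartile normalization the log2 fold changes were -0.023 for Atg2b (A1 against control), -0.017 for Rb1cc1 (A1 + OVA against control), -0.0051 for Atg5 (A1 + OVA against control), 0.0019 for Uvrag (A1 + OVA against A1), 0.0033 for Atg10 (A1 + OVA against A1). With DESeq2 the log2 fold changes were -0.0015 for Rb1cc1 (A1 + OVA against control), -0.0044 for Ulk2 (A1 + OVA against A1), -0.0016 for Tax1bp1 (A1 + OVA against A1). With no filter on low counts the log2 fold changes were -0.00032 for Rb1cc1 (A1 + OVA against control), -0.0021 for Ulk2 (A1 + OVA against A1). With all genes of the file the log2 fold changes were -0.0013 for Atg2b (A1 against control), -0.0067 for Rb1cc1 (A1 + OVA against control), -0.0042 for Ulk2 (A1 + OVA against A1), -0.0016 for Tax1bp1 (A1 + OVA against A1). In the fit of only the groups compared the log2 fold changes were -0.0015 for Rb1cc1 (A1 + OVA against control).

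With one sample left out, those that changed sign ranged for A1 against control from -0.11 to 0.040 for Atg10, from -0.019 to 0.092 for Atg13, from -0.035 to 0.045 for Atg2b, from -0.044 to 0.027 for Atg7, from -0.022 to 0.013 for Rb1cc1. For A1 + OVA against control they ranged from -0.037 to 0.063 for Atg101, from -0.023 to 0.010 for Atg4b, from -0.019 to 0.051 for Atg5, from -0.0084 to 0.026 for Rb1cc1, from -0.048 to 0.035 for Tecpr1. For A1 + OVA against A1 they ranged from -0.086 to 0.055 for Atg10, from -0.0054 to 0.073 for Atg2b, from -0.064 to 0.0055 for Atg5, from -0.11 to 0.0021 for Atg9a, from -0.060 to 0.079 for Epg5, from -0.021 to 0.024 for Map1lc3a, from -0.058 to 0.023 for Optn, from -0.041 to 0.054 for Pik3r4, from -0.017 to 0.029 for Rb1cc1, from -0.015 to 0.028 for Tax1bp1, from -0.018 to 0.026 for Ulk2, from -0.032 to 0.014 for Uvrag, from -0.047 to 0.034 for Vmp1, from -0.20 to 0.025 for Wdr45.

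The limits are set by 4 samples a group and by standard errors of 0.03 to 0.17. Several calls near the threshold depended on single samples, and a missing call does not show equal levels. No sample was given OVA alone, so that an effect of OVA without A1 could not be assessed. The causes of the changed calls were not tested.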
